A study of Danio rerio with 16 samples.

Results

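The response to 2,3,7,8-tetrachlorodibenzo-p-dioxin (TCDD) was measured in slincR morphants by comparing the 4 libraries labelled slincR morphant with TCDD against the 4 labelled slincR morphant with DMSO. These 8 libraries come from a set of 16, whose other 8 hold control morphants under the same agents. All were made from pools of 20 whole zebrafish embryos of the Tropical 5D line, collected at 48 h post fertilization (hpf). Near 6 hpf the embryos spent 1 h in 1 ng/mL TCDD or in 0.1% dimethyl sulfoxide (DMSO, the vehicle) and were then raised in clean water. All slincR libraries, vehicle included, therefore carry the morpholino, an antisense oligomer injected to block slincR, the gene of a long noncoding RNA that neighbours sox9b. Control morphants received a control morpholino. No gene identifier in the tables used here is paired with slincR, so its own level is not reported and the knockdown is not checked by it. Replicates are labelled as biological, and each p-value measures the spread between pools, not between single embryos.

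TCDD is a long-lived ligand of the aryl hydrocarbon receptor (AHR). The bound receptor enters the nucleus, pairs with ARNT and binds dioxin response elements, which raises genes for xenobiotic metabolism together with AHR repressors that limit the response. In zebrafish, ahr2 carries most of the toxicity of TCDD, and exposed embryos develop defects of the heart, the jaw and the vessels. The gene slincR itself is known as an AHR-dependent noncoding RNA, and the comparison asks which genes respond to TCDD when it is targeted.

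The gene counts per slincR library ran from 15524317 to 23142081. The share of reads outside genes was 13.1% to 13.4% in DMSO replicates 1 to 3 and 14.5% to 15.2% in TCDD replicates 1 to 3. Replicate 4 went the other way, at 15.2% in DMSO and 12.8% with TCDD, so the groups overlapped through that replicate alone. With this share as a covariate, 130 genes passed the threshold given below in place of 79. On the first principal component of the 8 libraries, with 20.7% of the variance, DMSO libraries lay between −25.3 and −0.34 and TCDD libraries between 3.03 and 29.6. Replicate 4 of each group lay nearest the other group there, and at opposite ends of the second component, at −38.6 and 29.5. Removal of DMSO replicate 4 alone left 82 genes past the threshold, and so did removal of TCDD replicate 4 alone. Of 35 marker symbols for the tissues of an embryo at this stage, 31 had a tested gene, and muscle, lens, retina, neuron, skin and cartilage markers were present in all 8 libraries. The lowest was the erythroid marker hbae1.1, at 0.128 to 2.145 CPM, while another erythroid marker, cahz, measured 122.2 to 186.6 CPM. The liver marker fabp10a was also low, with a minimum of 0.70 CPM. The heart marker vmhc, the erythroid marker hbbe1.1 and the leukocyte markers mpx and mpeg1.1 had no tested gene. In whole embryos, fewer cells of a type and less RNA per cell cannot be told apart for any gene described here.

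TCDD raised 64 genes and lowered 15 in slincR morphants, out of 20630 tested. The count of 79 is 0.383% of the genes tested, with 0.31% higher and 0.0727% lower. The threshold was an adjusted p under 0.05 in edgeR's quasi-likelihood (QL) test, with Benjamini-Hochberg (BH) adjustment over all genes tested, and every adjusted p below is from that test unless another is named. The median log2 fold change was 1.02 among the genes that rose and −0.63 among those that fell, while the median over all genes tested was −0.00. Of the genes that rose, 33 did so at least 2-fold, and of those that fell, 3 did. Levels are given as CPM, counts scaled to a common library size, and are not comparable between genes because they are not divided by gene length. The smallest change that passed was 0.41 on the log2 scale.

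In 78 of the 79 genes the DMSO and TCDD libraries did not overlap, the exception being ponzr3. Among all genes tested 1080 did not overlap, which is 5.24%. The 64 raised genes together held 1472 to 1625 CPM in the DMSO libraries and 4903 to 5490 CPM with TCDD. Without cyp1a the sums were 1459 to 1615 and 3285 to 3563 CPM. The 15 lowered genes summed to 874.5 to 1018 CPM in DMSO and 630.9 to 669.9 CPM with TCDD. Both sums therefore separated the groups without overlap, as the choice of genes by this contrast requires.

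**Figure D1:**
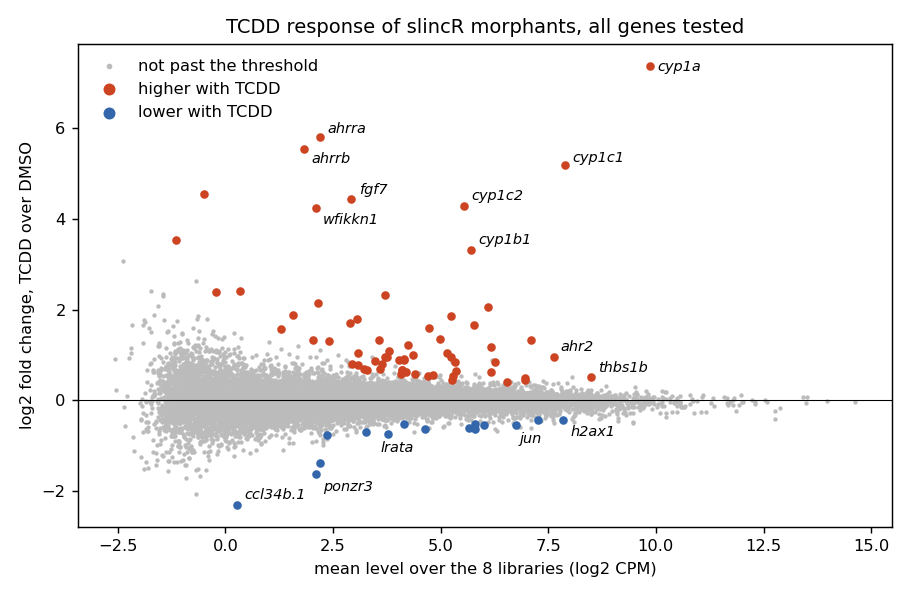
Log2 fold change of TCDD over DMSO in slincR morphants against the mean level over the 8 libraries (log2 CPM), 1 point per gene tested. The 64 genes that rose (red) reach 7.38 and the 15 that fell (blue) reach −2.31.

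Genes for the oxidation of xenobiotics rose, with cyp1a first by fold among all 79 genes. Of the cytochrome P450 family 1, cyp1a, cyp1b1, cyp1c1 and cyp1c2 passed the threshold. In the DMSO libraries cyp1a (ENSDARG00000098315), the monooxygenase gene used as the marker of AHR activity, measured 12.8, 10.2, 11.6 and 9.96 CPM. With TCDD it measured 1914, 1772, 1618 and 2095 CPM. Its share of all counts was 0.000968% to 0.00129% in the DMSO libraries and 0.163% to 0.212% with TCDD. The increase was 166-fold, a log2 fold change of 7.38 ± 0.13 (SE) with adjusted p = 2.13e-22.

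The tandem pair cyp1c1 and cyp1c2, monooxygenases that lie next to each other in RefSeq's gene order (assembly GRCz12tu), followed. In DMSO, cyp1c1 measured 10.2, 13.5, 14.2 and 12.8 CPM, and with TCDD 543.9, 460.9, 438.3 and 405.2 CPM. Its partner cyp1c2 had 4.11, 4.40, 6.13 and 3.56 CPM in DMSO and 102, 73.2, 76.8 and 103 CPM with TCDD. Both were far above every DMSO library, by 36.4-fold and 19.6-fold, with adjusted p = 2.77e-20 and 4.42e-16. For cyp1b1, which also metabolises steroids and retinoids, DMSO values were 11.7, 11.4, 7.65 and 7.34 CPM and TCDD values 101, 88.1, 89.3 and 102 CPM, a 10.0-fold rise with adjusted p = 7.89e-15. The related cyp1d1, which is not induced by TCDD in zebrafish, measured a mean of 21.7 CPM in DMSO and 20.5 with TCDD and did not pass (log2 fold change −0.09 ± 0.10, adjusted p = 0.966).

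Other redox enzymes moved less. The electron donor gene cyb5a rose from 64.9 to 89.9 CPM in DMSO to 171 to 233 CPM with TCDD, a 2.5-fold change with adjusted p = 4.78e-08. The dehydrogenase gene dhrs13l1 rose 1.89-fold and the amine oxidase gene aoc2 1.57-fold, with adjusted p = 0.00186 and 5.47e-04. Reads of close relatives such as cyp1c1 and cyp1c2 are lost when they align to both, so their counts are uncertain to that extent.

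In a role group of conjugating enzymes, written after the calls were seen, 4 genes rose and none fell. Such genes that did not pass were not counted. One of them, the glucuronosyltransferase gene ugt5g1, had a log2 fold change of −0.31 ± 0.13 (adjusted p = 0.558). In control morphants ugt5g1 passed as a decrease (−0.56 ± 0.13, adjusted p = 0.0396). The glucuronosyltransferase gene ugt1b1 had 27.1, 27.5, 28.9 and 22.2 CPM in DMSO and 121, 102, 104 and 112 CPM with TCDD, a 4.16-fold increase (adjusted p = 2.72e-13). Its near relative ugt1b5, with 3 genes between them in RefSeq's order, rose 3.18-fold (adjusted p = 6.36e-11). Reads that align to both of these genes entered neither count. A smaller change was that of ugt1a6, 1.59-fold (adjusted p = 0.0039). The sulfotransferase gene sult6b1 rose 3.04-fold, from 10.6 to 16.0 CPM in DMSO to 29.6 to 50.9 CPM, with the highest value in TCDD replicate 4 (adjusted p = 6.47e-07).

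Within the AHR pathway itself, both repressors, the receptor gene ahr2 and tiparp rose. The repressor gene ahrra (ENSDARG00000099702), which competes with the receptor for ARNT, was close to silent in DMSO at 0.12, 0.20, 0.27 and 0.04 CPM. With TCDD it reached 8.58, 8.11, 8.28 and 11.2 CPM. Its paralog ahrrb had 0.24, 0.25, 0.05 and 0.04 CPM in DMSO and 10.2, 4.97, 6.00 and 6.78 CPM with TCDD. Neither gene's groups came near each other. The rises were 56.2-fold and 46.9-fold (adjusted p = 1.71e-11 and 3.33e-09), resting on 12 and 11 counts over the 4 DMSO libraries against 670 and 502 with TCDD.

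The receptor gene ahr2 measured 125, 128, 133 and 149 CPM in DMSO and 267, 264, 261 and 252 CPM with TCDD. Every TCDD library was above every DMSO library, and the increase was 1.95-fold, a log2 fold change of 0.96 ± 0.08 (adjusted p = 2.29e-08). The feedback gene tiparp, a mono-ADP-ribosyltransferase that inactivates the receptor, rose 1.79-fold (adjusted p = 4.07e-05). By contrast the other receptor gene tested, ahr1b, and the partner gene arnt had log2 fold changes of −0.03 ± 0.11 and 0.04 ± 0.17, with adjusted p = 0.995 for each. Of the 11 tested receptors, repressors, partners and chaperones, 3 rose, none fell and 8 did not pass.

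Of 17 tested genes on a list of AHR target genes, 14 rose and none fell. Their median log2 fold change was 2.32, beside −0.00 over all genes tested. This list was drawn up with earlier results of these data known and is no independent evidence of the direction. Those of its members that did not pass were foxq1b (0.52 ± 0.20, adjusted p = 0.486), NQO1, a quinone reductase gene (0.12 ± 0.11, adjusted p = 0.927), and cyp1d1, given above.

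**Figure D2:**
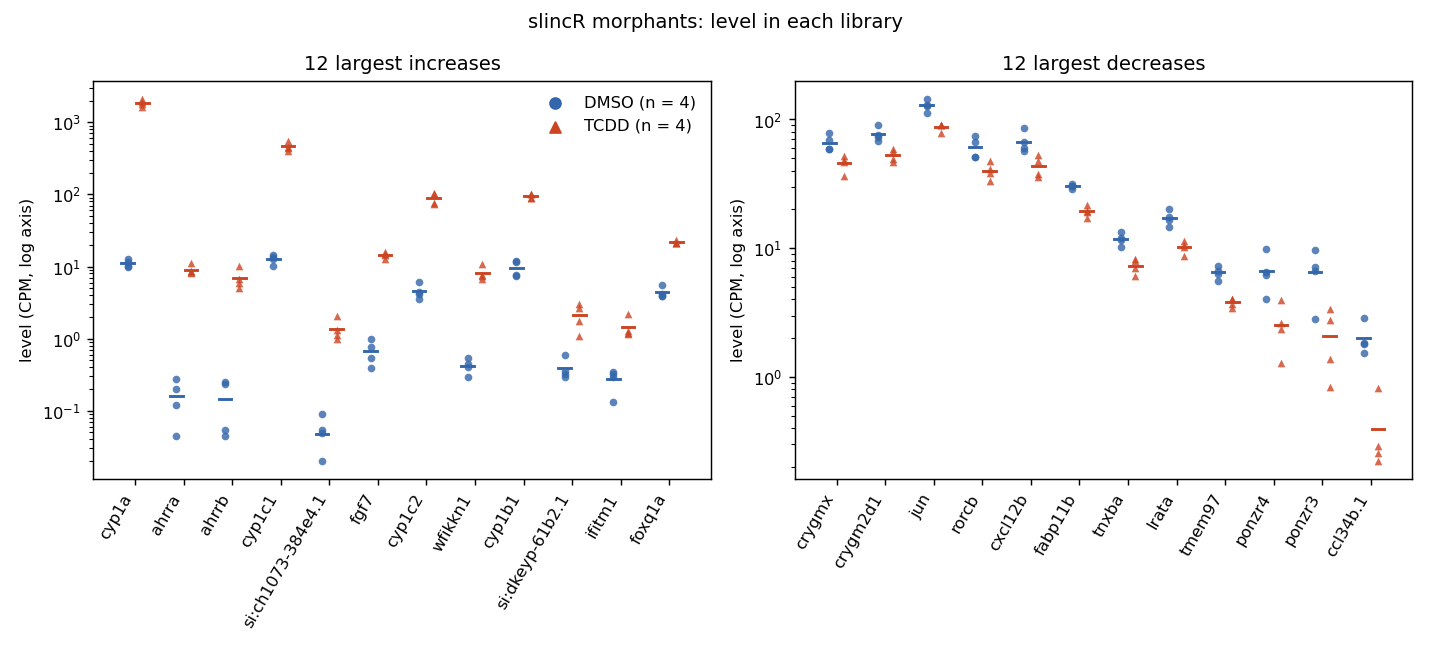
Level in each slincR library (CPM, log axis) of the 12 genes with the largest increases and the 12 with the largest decreases among those whose DMSO or TCDD mean reached 1 CPM; circles are DMSO, triangles TCDD, and bars the mean of 4. Among the genes drawn, DMSO and TCDD points overlap in ponzr3 only, and the value of 0 for the noncoding RNA ENSDARG00000097714 in DMSO replicate 1 is drawn at 0.02.

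Among secreted factors, the largest change was in fgf7 (ENSDARG00000059387), a growth factor that acts on epithelia. It measured 0.54, 0.40, 0.98 and 0.76 CPM in DMSO and 14.6, 12.7, 15.8 and 15.0 CPM with TCDD. The TCDD libraries lay close together, and the increase was 21.6-fold (log2 4.43 ± 0.23, adjusted p = 1.85e-12). The gene wfikkn1, for a secreted inhibitor of the growth factors GDF8 and GDF11, had 0.30, 0.45, 0.54 and 0.40 CPM in DMSO and 10.8, 7.63, 6.78 and 7.45 CPM with TCDD. It rose 18.9-fold (adjusted p = 8.11e-10).

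Connective tissue growth factor genes, whose products bind matrix and growth factors, rose by unequal amounts: ctgfb 3.64-fold (adjusted p = 1.76e-09) and ctgfa 1.40-fold (adjusted p = 4.28e-04). The matrix glycoprotein gene thbs1b, thrombospondin, had 286.3 to 305.8 CPM in DMSO and 394.3 to 435.4 CPM with TCDD, a 1.42-fold rise (adjusted p = 7.54e-04). Further increases were those of mamdc2b (3.46-fold), CRISPLD2 (2.46-fold), the interleukin 6 receptor gene il6r (2.06-fold), the adrenomedullin gene admb (1.73-fold) and pappa2, a protease gene whose product frees insulin-like growth factors (1.5-fold). Their adjusted p ran from 2.2e-06 to 0.00455. The activin inhibitor gene fstb rose 1.44-fold (adjusted p = 0.0399), a call lost in 10 of 24 alternative settings: the replicate block and the removal of DMSO replicate 1, 2 or 3, of TCDD replicate 1, 2 or 3 or of control morphant TCDD replicate 1, 2 or 4. Its adjusted p there ran from 0.0511 to 0.187.

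Chemokine genes, which guide migrating cells, went both ways. The increase of cxcl19 rests on 5 counts over the DMSO libraries, at 0 in replicates 2 and 3, against 62 over the TCDD libraries (log2 fold change 3.55 ± 0.74, adjusted p = 0.0259). The call was lost without DMSO replicate 2, 3 or 4 or TCDD replicate 1, 2 or 3 (adjusted p from 0.0504 to 0.126), and its counts were too low to be tested with a mean of at least 1 CPM or on the 8 slincR libraries alone. The ligand gene cxcl12b measured 66.7, 60.2, 56.6 and 85.1 CPM in DMSO and 53.2, 47.7, 37.5 and 36.0 CPM with TCDD. It fell to 0.648 of the DMSO level (adjusted p = 0.0146), and the call was lost without DMSO replicate 4 or TCDD replicate 3 or 4 (adjusted p up to 0.0946). Lowest of all fold changes was that of ccl34b.1, with 1.55, 1.83, 1.79 and 2.89 CPM in DMSO and 0.26, 0.29, 0.22 and 0.82 CPM with TCDD. Its log2 fold change of −2.31 ± 0.52 only just passed (adjusted p = 0.0484), and 13 of 24 settings lost it, with adjusted p up to 0.218. They were limma-voom, the replicate block and the removal of any slincR library other than TCDD replicate 4, or of control morphant DMSO or TCDD replicate 2 or 3.

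Of 47 tested growth factors and their receptors and antagonists, 3 rose (fgf7, wfikkn1 and fstb) and none fell, with a median of 0.02. The 11 tested genes on the interferon response list had no member past the threshold in edgeR, DESeq2 or limma-voom, 1 at an unadjusted p under 0.05, and a median of 0.04. That list does not hold ifitm1, the gene of an interferon-induced membrane protein, which rose and is described below. Over all genes tested, 1426 had an unadjusted p under 0.05 in edgeR (6.91%), DESeq2 called 165 (0.8%) and limma-voom 86 (0.417%). In the list of neutrophil and macrophage genes 2 of 23 rose (mmp13a and mmp9) and 1 fell (ccl34b.1). The mean score of that list over its genes lay between −0.07 and 0.17 in DMSO and between −0.16 and 0.10 with TCDD. The neutrophil lysozyme gene lyz had a log2 fold change of −0.92 ± 0.22 and did not pass (adjusted p = 0.0637). The part of leukocyte numbers in these changes was not tested.

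Of the 79 genes, 11 were put in a role group of transcription and cell cycle control after the calls were seen, of which 8 rose and 3 fell. The forkhead gene foxq1a had 5.54, 4.15, 3.96 and 3.91 CPM in DMSO and 21.4, 21.2, 21.1 and 23.4 CPM with TCDD, a 4.98-fold rise (adjusted p = 3.62e-11). Its neighbour in RefSeq's gene order, foxf2a, a forkhead gene expressed in neural crest and pericytes, rose 1.86-fold (adjusted p = 2.8e-05). Cell cycle inhibitor cdkn1ba, the gene of p27, had 53.3 to 60.1 CPM in DMSO and 79.7 to 98.7 CPM with TCDD (1.55-fold, adjusted p = 1.65e-04). The mesoderm factor genes meox1 and twist3 rose 1.58-fold and 1.62-fold, and the calcineurin effector gene nfatc4 1.62-fold. Their adjusted p were 0.0297, 0.0136 and 0.0261. The call of meox1 was lost without DMSO replicate 1 or 3 or TCDD replicate 1, 2 or 3 (adjusted p up to 0.169). That of nfatc4 was lost without DMSO or TCDD replicate 1, 2 or 4 (up to 0.116), and that of twist3 without DMSO replicate 4 or TCDD replicate 2 or 4 (up to 0.0769). None of the 30 tested cell cycle genes passed in edgeR. Of them 27 had a negative log2 fold change, beside 50.6% of all genes tested, with a median of −0.12. At an unadjusted p under 0.05 edgeR gave 6 of them, and DESeq2 and limma-voom called 0. The list's mean score was 0.01 to 0.13 in DMSO and −0.15 to −0.02 with TCDD. The groups did not overlap, but DMSO replicate 3 (0.01) and TCDD replicate 3 (−0.02) lay close.

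The immediate early gene jun, part of the AP-1 factor, was lower with TCDD. It measured 127, 144, 130 and 113 CPM in DMSO and 78.4, 90.6, 90.3 and 90.3 CPM with TCDD. The lowest DMSO library was above the highest TCDD library, and jun fell to 0.680 of the DMSO level (log2 fold change −0.56 ± 0.08, adjusted p = 5.47e-04). The histone variant gene h2ax1, a mark of DNA damage when phosphorylated, had 229.7, 256.1, 286.6 and 290.6 CPM in DMSO and 184.5 to 202.6 CPM with TCDD. It fell to 0.740 of the DMSO level (adjusted p = 0.0261), a call lost without DMSO replicate 2, 3 or 4 or TCDD replicate 1, 2 or 3 (adjusted p up to 0.139).

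Clock genes varied among the DMSO libraries. The period gene named PER1 (ENSDARG00000012499), a repressor in the circadian loop, measured 22.3, 26.7, 58.9 and 69.4 CPM in the DMSO libraries and 83.2, 110.7, 105.5 and 103.1 CPM with TCDD. The groups did not overlap, yet DMSO replicates 3 and 4 lay well above replicates 1 and 2. The rise was 2.27-fold (log2 1.18 ± 0.25, adjusted p = 0.0298). The nuclear receptor gene rorcb had 74.0, 67.3, 50.9 and 51.5 CPM in DMSO, with replicates 3 and 4 lowest, and 47.2, 38.4, 41.0 and 33.4 CPM with TCDD. It fell to 0.656 of the DMSO level (adjusted p = 0.0276). Both calls were lost in 5 settings, each without 1 library: DMSO replicate 1 or 2, or TCDD replicate 2, 3 or 4, with adjusted p up to 0.149 for PER1 and 0.137 for rorcb. The clock repressor gene bhlhe40 rose 1.33-fold (adjusted p = 0.0429), which 9 settings lost, with adjusted p up to 0.175: the removal of any slincR library other than TCDD replicate 1, of control morphant DMSO replicate 3 or of control morphant TCDD replicate 1.

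Over the 29 tested clock genes, 2 rose, 1 fell, and the median log2 fold change was 0.15. Their mean score was −0.29, −0.20, −0.06 and 0.02 in the DMSO libraries and 0.03, 0.21, 0.15 and 0.14 with TCDD. The groups did not overlap, but the lowest TCDD library was just above the highest DMSO library, and DMSO replicates 1 and 2 lay well below replicates 3 and 4. Of these clock genes 11 had an unadjusted p under 0.05 in edgeR, DESeq2 called 6 and limma-voom 5. In control morphants the list's median was also 0.15, and none of its genes passed in edgeR.

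Genes of the oxidative stress response rose in part. The factor gene nfe2l2b, an Nrf2 paralog, had 3.58, 2.82, 2.66 and 4.76 CPM in DMSO and 9.99, 11.4, 10.1 and 13.8 CPM with TCDD, a 3.27-fold increase (adjusted p = 4.89e-06). Heme oxygenase gene hmox1a, an Nrf2 target that breaks down heme, rose 2.13-fold (adjusted p = 3.42e-04). The other Nrf2 gene, nfe2l2a, had a log2 fold change of 0.43 ± 0.10 and did not pass on all 16 libraries (adjusted p = 0.0623). With edgeR on the 8 slincR libraries alone it passed (adjusted p = 0.0327). In control morphants nfe2l2a also passed (0.61 ± 0.10, adjusted p = 0.00127). Of 17 tested genes on this list, 2 rose and none fell, and the median was 0.12. DESeq2, limma-voom and edgeR on the 8 slincR libraries alone each called 3.

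In a role group of proteases and matrix genes, written after the calls were seen, 6 rose and 1 fell, while on the matrix remodelling list 2 of 22 tested genes rose (mmp13a and mmp9), none fell and the median was 0.07. The cathepsin gene ctsl.1 had 1.13 to 2.57 CPM in DMSO and 5.31 to 9.29 CPM with TCDD (4.42-fold, adjusted p = 1.09e-05). The collagenase gene mmp13a measured 1.25, 1.63, 1.3 and 0.93 CPM in DMSO and 3.40, 3.77, 6.33 and 5.34 CPM with TCDD, a 3.68-fold increase (adjusted p = 1.09e-04). TCDD replicates 3 and 4 were its highest. The aminopeptidase gene anpepla rose 2.52-fold, the transmembrane collagen gene col23a1a 1.48-fold and the calpain gene capn3b 1.36-fold, with adjusted p from 0.00201 to 0.00639. The gelatinase gene mmp9 rose 1.72-fold (adjusted p = 0.0428), but 10 settings lost it, with adjusted p up to 0.15: limma-voom, the replicate block and the removal of any slincR library except TCDD replicate 4 or of control morphant TCDD replicate 1. The call of col23a1a was lost without TCDD replicate 3 (adjusted p = 0.0558).

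Tenascin X gene tnxba, for a glycoprotein that organises collagen, had 10.2, 11.5, 12.1 and 13.4 CPM in DMSO and 6.98, 6.13, 7.95 and 8.22 CPM with TCDD. It fell to 0.619 of the DMSO level (adjusted p = 0.0429), a call lost in 10 settings, with adjusted p up to 0.213. These were the replicate block and the removal of DMSO replicate 2, 3 or 4, TCDD replicate 1, 2 or 3, control morphant DMSO replicate 1 or control morphant TCDD replicate 1 or 2. On separate lists, none of 27 collagen genes, 12 bone genes and 19 cartilage genes and sox9 targets passed in edgeR on all 16 libraries. Their medians were 0.04, −0.07 and −0.05. The collagen gene col23a1a, which passed as given above, is not on the collagen list. At an unadjusted p under 0.05 these lists had 5, 3 and 3 genes. On them DESeq2 called 1 collagen and 1 bone gene, and limma-voom 1 collagen gene. With edgeR on the 8 slincR libraries alone, the bone list's periostin gene postna (log2 fold change −0.46 ± 0.09, adjusted p = 0.0207) and the collagen gene col12a1a (0.32 ± 0.07, adjusted p = 0.0483) passed. The neighbour of slincR, sox9b (ENSDARG00000043923), a factor for cartilage, measured 109, 103, 89.2 and 106 CPM in DMSO and 79.9, 88.2, 85.1 and 85.5 CPM with TCDD. Its libraries did not overlap, with DMSO replicate 3 just above TCDD replicate 2. It did not pass (log2 fold change −0.27 ± 0.09, adjusted p = 0.404), nor in any of the 24 alternative settings. In control morphants sox9b passed (−0.52 ± 0.09, adjusted p = 0.00442), and the difference between both responses, 0.26 ± 0.13, did not (edgeR unadjusted p = 0.0639, adjusted p = 1).

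At the cell surface, ifitm1, for an interferon-induced membrane protein, had 0.30, 0.35, 0.33 and 0.13 CPM in DMSO and 1.28, 2.17, 1.17 and 1.18 CPM with TCDD. The highest value was that of TCDD replicate 2, and the rise was 5.26-fold (adjusted p = 0.00264). The gene of the large membrane protein pkhd1l1 and the adhesion gene ncam3 rose 2.54-fold and 2.53-fold (adjusted p = 2.24e-06 and 4.62e-06). Mucin gene muc5.2 rose 1.86-fold (adjusted p = 0.00173). Changes in genes of vessels were small: sele, the leukocyte-binding E-selectin, 1.59-fold (adjusted p = 0.0297) and ephb4b, a receptor of venous endothelium, 1.35-fold (adjusted p = 0.0111). The call of ephb4b was lost without DMSO replicate 3 or TCDD replicate 4 (adjusted p up to 0.0798). That of sele was lost under the replicate block and without DMSO or TCDD replicate 1, 2 or 3 (up to 0.16). None of 20 endothelial genes on a separate list passed in edgeR, DESeq2 or limma-voom, with 3 at an unadjusted p under 0.05 and a median of 0.06.

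In a role group of metabolism and transport, written after the calls were seen, 5 genes rose and 5 fell. The gluconeogenesis gene pck1 had 23.4 to 28.0 CPM in DMSO and 48.6 to 51.0 CPM with TCDD, a narrow 1.94-fold rise (adjusted p = 4.17e-06). The lipid droplet coat gene plin6 rose 1.93-fold (adjusted p = 1.27e-04). The monocarboxylate transporter gene slc16a6b measured 5.42, 9.39, 11.3 and 18.9 CPM in DMSO and 27.4, 26.2, 24.2 and 27.8 CPM with TCDD. Its DMSO libraries were widely spread and its TCDD libraries tight (2.33-fold, adjusted p = 0.00324). The organic anion transporter gene slco1d1 and the serotonin transporter gene slc6a4a rose 1.54-fold and 1.5-fold (adjusted p = 0.0222 and 0.0276). The first call was lost without DMSO replicate 1, 2 or 3 or TCDD replicate 1 or 3 (adjusted p up to 0.0978), and the second without DMSO replicate 1, 2 or 3 or TCDD replicate 1 or 4 (up to 0.134).

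Vitamin A storage gene lrata, which encodes the enzyme that forms retinyl esters, had 14.7, 20.2, 16.7 and 17.4 CPM in DMSO and 8.78, 10.5, 11.4 and 10.2 CPM with TCDD. It fell to 0.593 of the DMSO level (log2 fold change −0.75 ± 0.12, adjusted p = 8.52e-04) and was the only one of 30 tested retinoid genes past the threshold in edgeR. The fatty acid binding protein gene fabp11b measured 28.8, 30.4, 30.6 and 31.6 CPM in DMSO and 19.5, 19.2, 21.7 and 17.2 CPM with TCDD, a fall to 0.639 (adjusted p = 0.00324). All 9 tested genes of its family had a negative log2 fold change, with a median of −0.20, beside 50.6% of all genes tested. Of them fabp11b alone passed in edgeR and in limma-voom, and DESeq2 called 3. The family's mean score was −0.03 in DMSO replicate 4 and −0.02 in TCDD replicate 3, so the groups overlapped. The calls of jun, lrata and fabp11b were the 3 decreases that held in all 24 settings.

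The sterol-regulated gene tmem97 had 7.33, 5.58, 6.35 and 6.71 CPM in DMSO and 3.71, 4.01, 3.44 and 4.01 CPM with TCDD. It fell to 0.586 of the DMSO level (adjusted p = 0.0222), and it was the 1 gene of 26 on the cholesterol synthesis list that passed in edgeR and in limma-voom, where DESeq2 called 2. Of these 26, 21 had a negative log2 fold change, beside 50.6% of all genes tested, and the median was −0.22. The list's mean score was −0.04 in DMSO replicate 3 and −0.02 in TCDD replicate 1, so the groups overlapped. The lipase activator gene apoc2 fell to 0.736 (adjusted p = 0.0415) and hif1al2 to 0.697 (adjusted p = 0.034). The call of tmem97 was lost without DMSO replicate 1, 3 or 4 or TCDD replicate 1, 2 or 3 (adjusted p up to 0.097). That of hif1al2 was lost without any DMSO replicate or TCDD replicate 1, 2 or 4 (up to 0.184). The call of apoc2 was lost in 11 settings (up to 0.231): without DMSO replicate 2 or 3, any TCDD replicate, control morphant DMSO replicate 1 or 3, or control morphant TCDD replicate 1, 2 or 4.

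Crystallin genes crygmx and crygm2d1, for structural proteins of the lens, fell with TCDD. In crygmx the level was 58.9, 68.8, 78.0 and 59.0 CPM in DMSO and 36.3, 46.5, 48.3 and 52.4 CPM with TCDD. For crygm2d1 it was 67.6, 75.7, 90.2 and 73.3 CPM in DMSO and 59.0, 49.6, 46.3 and 55.7 CPM with TCDD. They fell to 0.694 and 0.686 of the DMSO level (adjusted p = 0.0297 and 0.0338), and both calls were lost without DMSO replicate 2 or 3 or TCDD replicate 2 or 3, with adjusted p up to 0.185 and 0.197. That of crygmx was also lost without TCDD replicate 1, and that of crygm2d1 without DMSO or TCDD replicate 4. Of 27 tested crystallin genes 2 fell, none rose and 25 had a negative log2 fold change, beside 50.6% of all genes tested. Their median was −0.21. DESeq2 called 3, and edgeR on the 8 slincR libraries alone added CRYBA2 (adjusted p = 0.043) on this list. Yet the list's mean score was −0.07 in DMSO replicate 4, below the −0.04 of TCDD replicate 4, so the libraries overlapped. Gamma crystallin genes are near-identical copies, and their counts are uncertain where reads align to several of them.

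Ribosomal protein genes, for the parts of the ribosome, had small negative values. All 65 tested on the list had a negative log2 fold change, beside 50.6% of all genes tested, with a median of −0.25. None passed in edgeR on all 16 libraries or in limma-voom, DESeq2 called 2, and 26 had an unadjusted p under 0.05 in edgeR. With edgeR on the 8 slincR libraries alone 3 of them passed: RPS18 (−0.42 ± 0.09, adjusted p = 0.0288), rpl32 (−0.46 ± 0.10, adjusted p = 0.0389) and RPS14 (−0.36 ± 0.08, adjusted p = 0.0389). Their score was −0.06 in DMSO replicate 4 and 0.01 in TCDD replicate 3, so again the groups overlapped. In the list of erythroid and heme genes TCDD replicate 1 stood apart with a score of −0.46, where the other 7 libraries lay between −0.05 and 0.22. None of its 22 genes passed in edgeR, DESeq2 or limma-voom, and 7 had an unadjusted p under 0.05. The lists of heart, skeletal muscle, neuron, pigment cell, photoreceptor, Notch, p53 and glycolysis genes likewise had no member called by any of these tools, with at most 5 members at an unadjusted p under 0.05.

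The ponzr genes, a family of cysteine-rich proteins of which ponzr1 is needed in the zebrafish pronephros, fell in part. The level of ponzr4 was 4.05, 6.52, 9.88 and 6.23 CPM in DMSO and 1.28, 2.37, 3.94 and 2.62 CPM with TCDD. For ponzr3, its neighbour, values were 2.80, 6.67, 9.66 and 7.12 CPM in DMSO and 0.83, 2.75, 3.39 and 1.39 CPM with TCDD. Replicate 1 was lowest in both groups for both genes, and TCDD replicate 3 of ponzr3 exceeded DMSO replicate 1. They fell to 0.385 and 0.322 of the DMSO level (adjusted p = 0.0124 and 0.033), and both calls were lost without DMSO replicate 3 or TCDD replicate 1 or 2, with adjusted p up to 0.0981 and 0.185. That of ponzr3 was also lost in limma-voom and without DMSO replicate 2 or 4 or TCDD replicate 4. Reads that align to both of these adjacent paralogs entered neither count. Of 6 tested family members 2 fell, none rose, and the median was −0.30.

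Genes with clone names or no coding product made up 7 of the increases. The long intergenic noncoding RNA ENSDARG00000097714, so classed in the authors' deposited table, had 0, 0.05, 0.05 and 0.09 CPM in DMSO and 2.05, 1.3, 1.11 and 0.98 CPM with TCDD. That is 4 counts over the DMSO libraries against 98 with TCDD (log2 fold change 4.54 ± 0.48, adjusted p = 1.77e-06), so the fold is imprecise beyond its direction. The gene si:dkeyp-61b2.1 measured 0.30, 0.59, 0.33 and 0.36 CPM in DMSO and 2.69, 2.99, 1.78 and 1.08 CPM with TCDD, with TCDD replicate 4 lowest (5.31-fold, adjusted p = 6.81e-04). Noncoding RNAs si:ch211-285j16.4 and si:ch211-265g21.1, also lincRNAs in the authors' deposited table, rose 2.07-fold and 1.82-fold (adjusted p = 1.27e-04 and 0.00223). Further clone-named increases were ENSDARG00000097726 (2.99-fold), si:ch211-229d2.5 (1.94-fold) and ENSDARG00000098058 (1.81-fold). The first was lost without DMSO replicate 1 or 3 or TCDD replicate 1 or 2 (adjusted p up to 0.0981). Of the remaining coding genes, the RNA-binding gene bicc1a rose 2-fold, lonrf1l 1.75-fold and PLEKHH3 1.46-fold, with adjusted p of 1.91e-05, 0.0071 and 0.00125. The call of lonrf1l was lost without TCDD replicate 2, its highest library at 19.3 CPM (adjusted p = 0.0658).

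**Figure D3:**
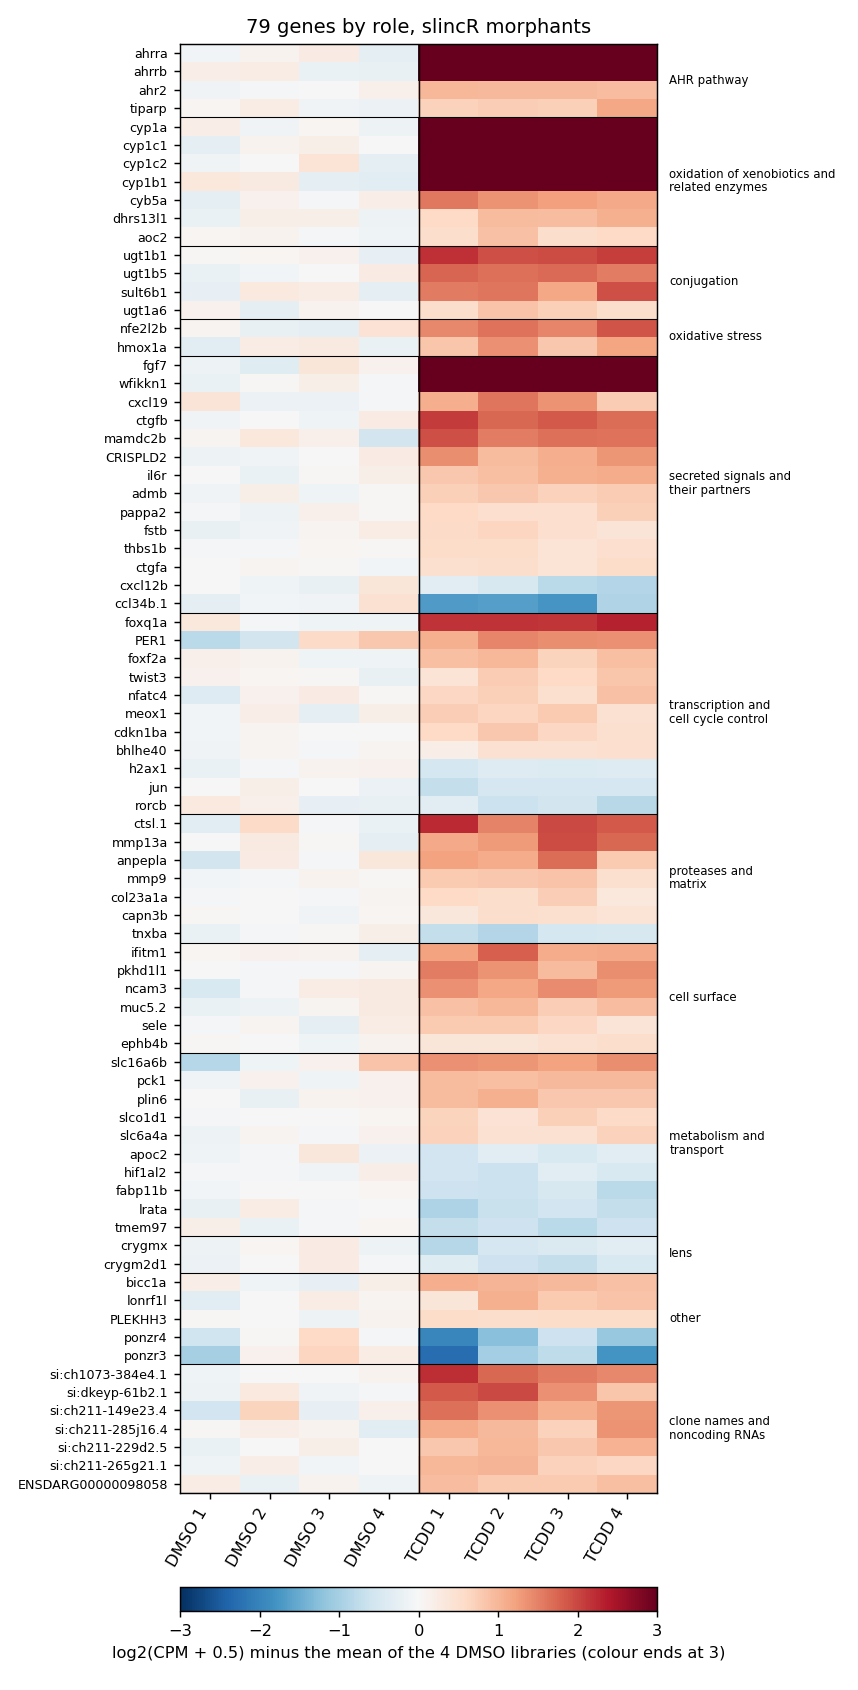
Each of the 79 genes (rows, by role) in each slincR library (columns), as log2(CPM + 0.5) minus the mean of the 4 DMSO libraries, with colour ending at 3. The DMSO spread of PER1, slc16a6b and ponzr3 stands out, while ahrra, ahrrb, cyp1a, cyp1b1, cyp1c1, cyp1c2, fgf7 and wfikkn1 are near or at the colour's end in each TCDD library.

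By position, 71 of the 79 genes could be matched by symbol to RefSeq's gene order in GRCz12tu. In 4 pairs the genes lay within 5 places of each other: cyp1c1 and cyp1c2, foxf2a and foxq1a, and ponzr3 and ponzr4 as direct neighbours, and ugt1b1 and ugt1b5 with 3 genes between. Both members of each pair moved in the same direction.

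**Figure D4:**
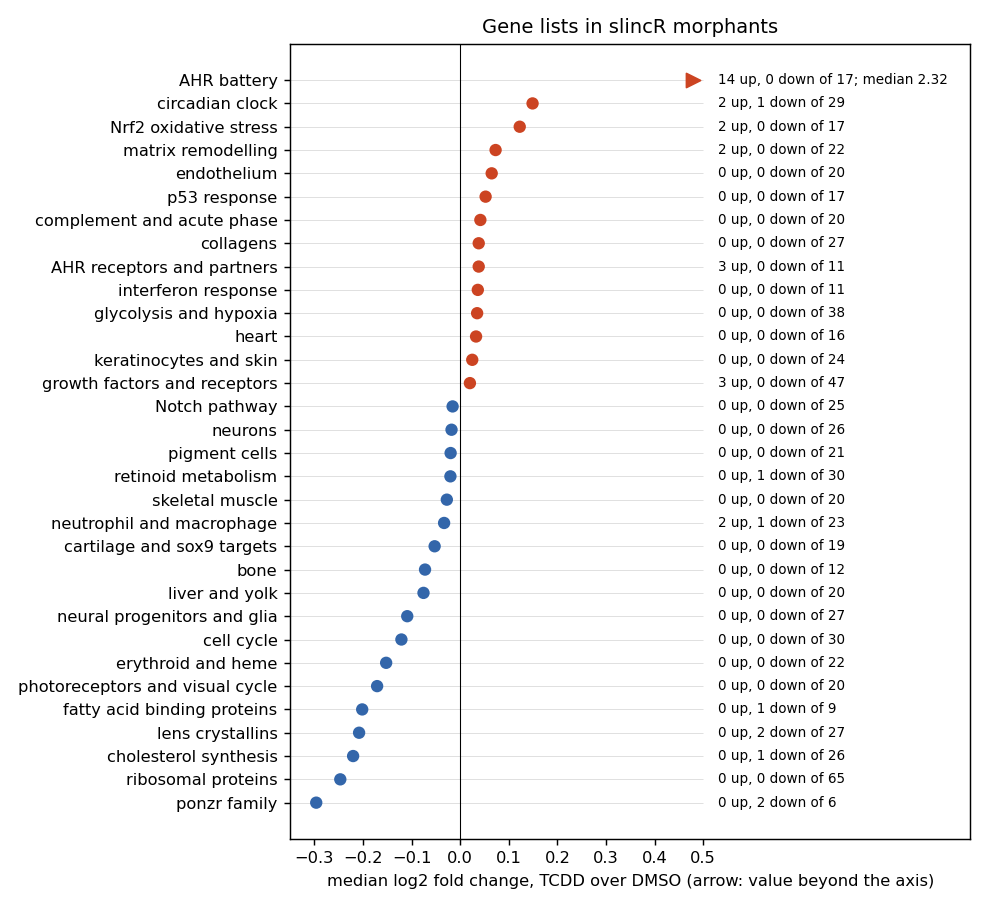
Median log2 fold change of each of 32 gene lists for TCDD over DMSO in slincR morphants, 1 point per list, with the number of members that rose and fell among those tested. The AHR target list lies beyond the axis at 2.32, and every other median is between −0.30 and 0.15.

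The same contrast in the 8 control morphant libraries gave 128 genes past the threshold (0.62%), 97 higher (0.47%) and 31 lower (0.15%). The contrasts share no library, but both come from the fit on all 16 libraries and use its estimate of the spread. Their calls are therefore not fully independent. Of the 79 genes of slincR morphants, 56 passed there too, 50 of them higher and 6 lower, which is 70.9% of the slincR morphant calls and 43.8% of those in control morphants. All 79 had the same sign in control morphants. In cyp1a the log2 fold changes were 7.38 ± 0.13 and 7.27 ± 0.13 in slincR and control morphants, in ahr2 0.96 ± 0.08 and 0.96 ± 0.08, in cyp1b1 3.32 ± 0.13 and 3.32 ± 0.13, and in fgf7 4.43 ± 0.23 and 4.44 ± 0.23.

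The remaining 23 genes passed in slincR morphants and not in control morphants. They were 14 increases (cxcl19, ifitm1, anpepla, slc16a6b, PER1, hmox1a, lonrf1l, admb, twist3, nfatc4, sele, slco1d1, fstb and bhlhe40) and 9 decreases (h2ax1, apoc2, hif1al2, crygmx, crygm2d1, rorcb, tnxba, tmem97 and ponzr3). Each had a larger change in slincR morphants, which their choice by the threshold favours. In the other direction, 72 genes passed in control morphants and not here. Of these, 66 had the same sign in slincR morphants, and 47 had an unadjusted p under 0.05 there in edgeR. A smaller change in slincR morphants was seen in 71 of the 72, which their choice by the threshold likewise favours. The prostaglandin transporter gene slco2a1 was first among them by its p in control morphants, with 1.52 ± 0.19 there and 0.75 ± 0.18 in slincR morphants (adjusted p = 0.0726).

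The difference between both responses was tested directly, and no gene passed in edgeR, in DESeq2 or in limma-voom. At an unadjusted p under 0.05 edgeR gave 617 genes (2.99% of those tested), below the share of 0.05 given where no gene differs. Within the 79, 7 genes had such a p, and none passed after adjustment (adjusted p = 1). The greatest contrast by p was in lonrf1l, which had a log2 fold change of 0.81 ± 0.15 in slincR and 0.07 ± 0.15 in control morphants, a difference of 0.73 ± 0.22. For ENSDARG00000097714 the difference was 1.41 ± 0.62, but its level was lower in slincR morphants, with means of 0.048 CPM in DMSO and 1.36 with TCDD against 0.921 and 8.14 CPM in control morphants. That difference rests on 4 counts over the slincR DMSO libraries. Whether this RNA is the target of the morpholino was not tested. The other differences were 0.81 ± 0.35 for mmp13a, and for cyp1c2 −0.50 ± 0.21, for muc5.2 −0.52 ± 0.21, for rorcb −0.44 ± 0.18 and for tmem97 −0.49 ± 0.22. A gene that passed in one kind of morphant alone was therefore not shown to respond differently.

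**Figure D5:**
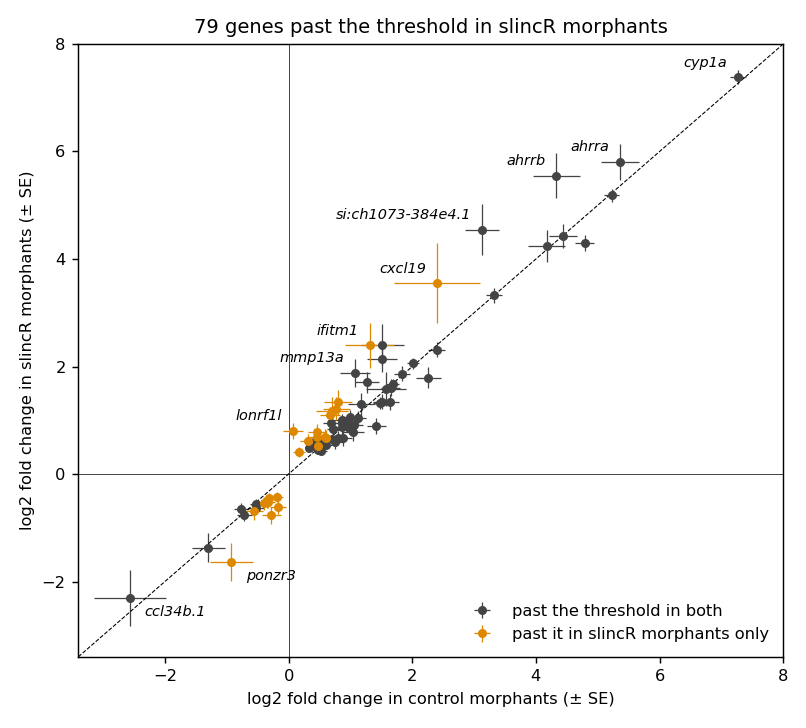
Log2 fold change (± SE) of the 79 genes in slincR morphants (vertical) against control morphants (horizontal); the dashed line marks equal responses. All 79 points share their sign, cyp1a lies at 7.38 and 7.27, and orange points are the 23 genes past the threshold in slincR morphants and not in control morphants.

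The authors' deposited table for the same libraries lists 80 genes, 66 higher and 14 lower with TCDD. Of these, 76 (95%) passed in the fit used here. The other 4 in the authors' deposited table were the water channel gene aqp8a.1, ptgdsb.1, nfe2l2a and ctss2.1, with adjusted p here between 0.0521 and 0.0623. Genes past the threshold here and not in the authors' deposited table were cxcl19, PER1 and ponzr3. Log2 fold changes of shared genes differed by at most 0.00248 from the authors' deposited table. Both come from the same samples, so neither is independent evidence for the other.

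How many genes fell depended on single libraries. With 15 decreases on all 16 libraries, 6 passed without DMSO replicate 2, 6 without DMSO replicate 3, 7 without TCDD replicate 1, 6 without TCDD replicate 2 and 8 without TCDD replicate 3. The increases ranged from 55 to 94 over all removals of 1 library, with 94 when control morphant DMSO replicate 4 was left out. Without that library 114 genes passed, 20 of them decreases. It stood apart on the first principal component of all 16 libraries, at −63.4, where the others lay between −17.7 and 19.4. The main fit includes it, so it enters the estimate of the spread behind the count of 79. Of the 79 genes, 52 passed in all 24 alternative settings, 49 of them increases.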

How the data were processed

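RNA of whole embryos was sequenced as poly-A selected, paired 150 bp reads, per the labels' protocols. The authors deposited raw counts, 1 row per Ensembl gene. The submitters' processing notes name FastQC, TopHat, SAMtools, HTSeq and edgeR and the build GRCz10. Versions, settings, the annotation release and whether strand was used: not given in the sources used here. Antisense and overlapping genes therefore cannot be separated. Reads outside genes, ambiguous reads (0.274% to 0.332% in slincR libraries) and reads aligned to several places (24.44% to 29.35%) entered neither the library sizes nor any test.

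The authors also deposited a list of genes past their threshold in slincR morphants, with log2 fold changes and adjusted p-values, per the file headers. Its log2 mean level, F score, −log10 values and the p-values were deposited by the authors and not used here. The list served for gene symbols, biotypes and a comparison of calls.

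Counts were scaled by TMM. Genes were kept by filterByExpr with a minimum count of 10, which left 20630 of 32266. A quasi-likelihood model with 1 mean per group was fitted to all 16 libraries in edgeR 4.0.16 (R 4.3.3), which left 12 residual degrees of freedom. The biological coefficient of variation was 14%. The contrast was TCDD minus DMSO in slincR morphants. The same contrast in control morphants and the difference of both were also tested. An SE is the log2 fold change divided by the square root of F. The step was also run on counts simulated from its own fitted spread, with changes placed only in genes of higher counts. That run cannot test calls at low counts or the effect of outlying libraries. No 2 slincR libraries of a group agreed within sampling noise (chi-square per degree of freedom 5.88 to 20.1).

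The 24 alternatives were RLE size factors, DESeq2 1.42.0, limma-voom (limma 3.58.1), no filter, a mean of at least 1 CPM, the 8 slincR libraries alone, replicate number as a block, a covariate for the share of reads outside genes, and the removal of each library. The members, the 32 gene lists and these tests were chosen with earlier results of these data known. The role groups were written after the calls were seen. Of 768 list symbols 713 matched an identifier, 401 of them by an upper-case name only. Per-library values are given for up to 12 genes with the largest increases and 12 with the largest decreases at a mean of at least 1 CPM, for the AHR genes, sox9b and ENSDARG00000097714, and for members whose spread is described. Lists name up to 4 members past the threshold, or up to 2 by smallest p. A list score is the mean over its genes of log2 CPM (prior count 2), each minus the gene's mean over the 8 libraries.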

Additional observations from a re-analysis of the deposited data

Results flagged for a closer look

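In 58 groups of 4 library values checked for an outlying library, 7 had one by Dixon's criterion, where chance gives about 1 in 20. The repressor gene ahrra measured 11.25 CPM in TCDD replicate 4, where the other TCDD libraries had 8.114 to 8.584 CPM. The membrane protein gene ifitm1 measured 2.173 CPM in TCDD replicate 2, above 1.167 to 1.281 CPM in the others. The forkhead gene foxq1a stood out in DMSO replicate 1, at 5.541 CPM against 3.914 to 4.151, and in TCDD replicate 4, at 23.42 CPM against 21.06 to 21.4. The AP-1 gene jun was lowest in TCDD replicate 1, at 78.41 CPM against 90.28 to 90.6. The chemokine gene ccl34b.1 measured 0.8219 CPM in TCDD replicate 4, above 0.2222 to 0.2898 CPM in the others. Reads in no gene made up 15.2% in DMSO replicate 4, against 13.08% to 13.39% in the other DMSO libraries. Each of these genes kept its direction without the library named.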

How the results depend on the processing

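The count of 79 genes became 165 in DESeq2 (117 higher, 48 lower), 125 with the 8 slincR libraries alone (92 and 33) and 130 with a covariate for the share of reads outside genes (95 and 35). Removal of 1 library gave 61 to 114 genes. List members past the threshold numbered 31, 49 in DESeq2, and 20 to 37 with 1 library removed, the lowest without slincR TCDD replicate 2. The authors' list passed at 72.5% to 100% with 1 library removed. No fold change turned its sign among the genes followed through the settings. These were the 79, sox9b, the genes with the smallest p that only the 8 slincR libraries gave, and the list members with the smallest p. Other genes named here, such as arnt, ahr1b and cyp1d1, were not followed in this way. The difference test gave 0 genes in each setting where it was run. The replicate block gave 86 genes, 74 of them shared with the 79. Same-numbered DMSO and TCDD libraries did not deviate together (r from −0.178 to −0.00745), so no pairing by number was seen over all genes. With 4 libraries per group this check cannot show that the numbers pair no samples. Low genes such as cxcl19, with 5 counts in DMSO, are limited by depth.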

Other observations

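With the spread taken from the 8 slincR libraries alone, the biological coefficient of variation was 12.1% in place of 14%, and 47 further genes passed, 29 higher and 18 lower. The further decreases include the ribosomal protein genes RPS18, rpl32, RPS14 and RPL13A and the crystallin genes CRYGN, crygm2d6 and CRYBA2, named here after their values were seen. That fit called 125 of 20061 genes (0.623%). By smallest p, the keratin gene krt1-19d rose from 9.41 ± 0.82 to 15.5 ± 0.93 CPM (SD, n = 4), with an edgeR adjusted p of 0.00254 in this fit and 0.0631 in that on 16 libraries. Another keratin gene, krt15, fell from 100.1 ± 9.33 to 71.9 ± 6.72 CPM (edgeR adjusted p = 0.0109 and 0.112). The antimicrobial peptide gene defbl1 fell from 121 ± 14.5 to 85.6 ± 5.82 CPM (edgeR adjusted p = 0.00719 and 0.0875).

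Further genes of that kind were the metalloreductase gene STEAP4, the prostaglandin synthase gene ptgdsb.1 and the guanine exchange factor gene PREX2, which rose by 0.55 ± 0.10, 0.52 ± 0.09 and 0.49 ± 0.10 on the log2 scale (SE, 8 libraries). The protease inhibitor gene WFDC1 had −0.50 ± 0.10. The serine synthesis gene PSAT1 rose by 0.59 ± 0.12 in this fit (edgeR adjusted p = 0.0168, and 0.0713 on 16 libraries). Its log2 fold change in control morphants was −0.12 ± 0.14, and the test of slincR minus control morphants gave 0.70 ± 0.20, which missed the threshold (edgeR adjusted p = 1). The other genes named in this section had the same sign in both kinds of morphant. Of them krt1-19d (1.02 ± 0.17) and krt15 (−0.58 ± 0.12) passed in control morphants (edgeR adjusted p = 0.00157 and 0.027).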
